A study of Mus musculus with 12 samples.

Results

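A set of 44 genes of the secretory pathway and the unfolded protein response (UPR) was followed through sorted mouse osteoblasts. The 44 genes were taken by symbol from the 32288 entries of the count table, and all 44 were found. They fall into 14 endoplasmic reticulum (ER) chaperones and folding enzymes, 9 UPR sensors and effectors, 7 genes of ER-associated degradation (ERAD), 10 genes of the translocon and signal peptidase, and 4 genes of the COPII coat and the KDEL receptors. A gene counts as a member by its name alone.

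RNA-seq was run on mGFP+ cells sorted from the metaphysis, the part of a long bone under the growth plate. Osx-CreERT2, a tamoxifen-activated Cre expressed from the *Osx* (*Sp7*) locus of osteoblast-lineage cells, and the mTmG reporter, which turns Cre-expressing cells green, were carried by mice of every group. Juvenile (3 weeks, n = 4) and adult (8 weeks, n = 4) Osx-CreERT2; mTmG controls received tamoxifen on 3 consecutive days and were collected 2 days later, with 2 male mice pooled per replicate. *c-Myc* osteoblasts (n = 2) carried LSL-tTA and Col1a1::TetO-c-Myc beside those alleles, so that Cre releases the transactivator tTA and tTA drives *c-Myc*. *c-Myc* + *R172H* osteoblasts (n = 2) carried in addition Trp53-LSL-R172H, a Cre-released mutant p53 allele. Both induced groups received tamoxifen on 2 consecutive days at 3 weeks and were collected 7 days after it, were called 5-week-old at dissection, had the bone shaft trimmed at about 5 mm instead of 2 mm from the growth plate, and included both sexes. Per the paper, mice with the tTA-driven transgene, or pregnant females, drank water with doxycycline or tetracycline until some time before analysis. No such treatment is described for the controls. Age, tamoxifen schedule, dissection and, as described, this treatment therefore move with *c-Myc* induction and cannot be told apart from it. Sex moves with it in part, as the controls were all male. A mixed C57BL/6–129×1/Sv background and the removal of CD31+, CD45+ and TER119+ cells were shared by the groups.

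Library totals ran from 9066154 to 15684412 counts, and a floor of 3 counts corresponded to 0.137 to 0.417 CPM (counts scaled to the effective library size). CPM below are scaled by library size and TMM factor over all 12 libraries. *Myc* stood at 39.8 to 52.2 CPM in juvenile and at 624 and 657 CPM in *c-Myc* libraries. *Xist*, at 1.24 CPM or less elsewhere, reached 233 CPM in *c-Myc* replicate 2 and 211 CPM in *c-Myc* + *R172H* replicate 2 (mice of both sexes were used for the induced groups), while replicate 1 of both groups lay within the range of the male controls. All 10 osteoblast markers were detected in every group, and in every library endothelial, erythroid and myeloid markers summed to at most 1.24, 0.680 and 12.3 CPM. Plasma and B cell markers summed to 52.3 to 86.4 CPM, osteoclast markers to 203 to 411 CPM in controls and 52.2 to 104 CPM in induced libraries, and marrow stromal markers to 272 to 591 CPM in controls and 86.2 to 186 CPM in induced libraries. Collagen mRNA takes a large share of these libraries. *Col1a1* alone held 33.4 to 39.1% of counts in juvenile, 21.4 to 34.1% in adult, 9.14 and 11.3% in *c-Myc* and 5.61 and 5.83% in *c-Myc* + *R172H* libraries. Another entry, *Gm26917*, held 7.19 to 8.46% of counts in juvenile and 4.70 to 10.5% in adult libraries. Its share was 28.2 and 29.4% in *c-Myc* and 26.5 and 28.7% in *c-Myc* + *R172H* libraries.

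Osteoblasts are professional secretory cells that export type I procollagen. Secreted proteins enter the ER through the SEC61 translocon, lose their signal peptide to the signal peptidase, fold with the help of chaperones such as BiP (*Hspa5*) and GRP94 (*Hsp90b1*), and leave in COPII vesicles, while KDEL receptors return escaped chaperones from the Golgi. When unfolded protein builds up, the sensors IRE1 (*Ern1*), PERK (*Eif2ak3*) and ATF6 switch on the UPR. IRE1 splices *Xbp1* mRNA, PERK phosphorylates eIF2α and thereby favours translation of *Atf4*, and cleaved ATF6 moves to the nucleus. Much of this regulation is by splicing, phosphorylation and cleavage, which gene-level counts do not show.

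The promoters of the members hold the known response elements of this pathway, and these are shown because the role groups described below differ in which element they carry. RefSeq promoters (GRCm38.p6) were available for 35 of the 44 members. The ER stress response element ERSE is CCAAT, 9 bases of any kind, then CCACG, and was searched on both strands. It was found in 9 of 35 members, 7 of them among the 12 chaperone promoters (58.33%), against 37 of 27025 promoters in the table (0.1369%). The capitals mark the match, which on the opposite strand reads CGTGG, 9 bases, then ATTGG.
*Hspa5*, chr2:34772020-34772048, plus strand: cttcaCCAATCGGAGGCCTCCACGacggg
*Hsp90b1*, chr10:86705633-86705661, minus strand: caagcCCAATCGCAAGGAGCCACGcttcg
*Hsp90b1*, chr10:86705528-86705556, minus strand: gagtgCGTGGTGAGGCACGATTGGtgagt
*Pdia6*, chr12:17266486-17266514, plus strand: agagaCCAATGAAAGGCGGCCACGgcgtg
*Calr*, chr8:84847070-84847098, minus strand: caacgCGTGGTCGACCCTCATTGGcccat
*Canx*, chr11:50325795-50325823, minus strand: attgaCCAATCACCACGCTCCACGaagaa
*Creld2*, chr15:88819515-88819543, plus strand: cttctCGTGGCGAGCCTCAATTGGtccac

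The other ERSE holders were *Dnajc3*, *Syvn1* and *Derl3*. A UPR element (UPRE) with the letters TGACGTGG was found in 3 of 35 members, which were all 3 COPII and KDEL receptor genes with a promoter in the table, against 193 of 27025 promoters (0.7142%). The UPRE letters end in CGTGG, the reverse complement of the last part of ERSE.
*Kdelr3*, chr15:79516368-79516395, plus strand: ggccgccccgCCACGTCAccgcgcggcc
*Sec23a*, chr12:59011994-59012021, minus strand: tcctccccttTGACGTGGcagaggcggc
*Sec24d*, chr3:123267460-123267487, plus strand: cccgggcgccTGACGTGGcactagcaac

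The match began at position -30 from the gene start in *Kdelr3*, at 7 in *Sec23a* and at -26 in *Sec24d*. ERSE-II, spelled ATTGG, 1 base, then CCACG, was found in *Dnajb11* and *Herpud1*, against 0.0444% of all promoters. The core of the C/EBP-ATF response element bound by ATF4 (TGATGNAA) was found in *Trib3*, *Chac1* and *Herpud1*, against 4.511%. The E-box CACGTG, the letters that MYC-MAX dimers recognize, was found in *Calr*, *Dnajb9*, *Derl3* and *Ssr1*, which is 11.43% of the member promoters against 8.093% of all. A match is a run of letters and no measurement of binding.
*Trib3*, chr2:152344029-152344056, minus strand: tagctcaggtTTACATCAgccgggcggg

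With *c-Myc*, the machinery of ER entry and ER exit fell relative to all genes while the chaperones as a group did not. Of the 43 members tested against juvenile osteoblasts, 25 were lower and 6 higher at an adjusted p below 0.05 by edgeR's quasi-likelihood test, where 25.0% of the 12588 genes tested were lower and 28.4% higher. The median log2 fold change of the members was -0.49, against 0.04 for all genes tested. All 4 COPII and KDEL receptor genes fell (median -1.53), as did 7 of 10 translocon and signal peptidase genes (median -0.82), 4 of 6 tested ERAD genes (median -0.76) and 6 of 9 UPR sensors and effectors (median -0.60), whereas the 14 chaperones split into 4 higher, 4 lower and 6 uncalled (median 0.04). In bulk libraries, fewer cells of a type and less RNA per cell cannot be told apart. Of the members, 12 were at least 2-fold lower and 2 at least 2-fold higher, against 16.0% and 18.4% of all genes. The libraries did not overlap between *c-Myc* and juvenile for 35 of 43 members, against 64.5% of all genes.

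These directions hold relative to all genes and depend on how libraries are scaled. When CPM were set by library totals alone, the median of all genes moved to 0.87 and that of the members to 0.34, and 20 members were called higher and 9 lower, where 54.0% of all genes were higher and 8.86% lower. With sex, read from *Xist*, as a term in the fit 5 were higher and 21 lower (24.0% and 20.2% of all genes). Leaving out the libraries with *Xist* leaves neither induced group with replicates, and leaving out a *c-Myc* replicate leaves that group without any. Calls lost in these fits, given below, cannot be told from the loss of replicates. Relative to the all-gene median by library totals, the medians of the role groups stayed close to their values under TMM. They were -1.57 for COPII and KDEL receptors, -0.86 for the translocon, -0.80 for ERAD, -0.63 for sensors and effectors and 0.01 for chaperones. The 9 members still lower by library totals were *Eif2ak3*, *Creb3l1*, *Xbp1*, *Edem1*, *Ssr4*, *Kdelr2*, *Kdelr3*, *Sec23a* and *Sec24d*.

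**Figure D1:**
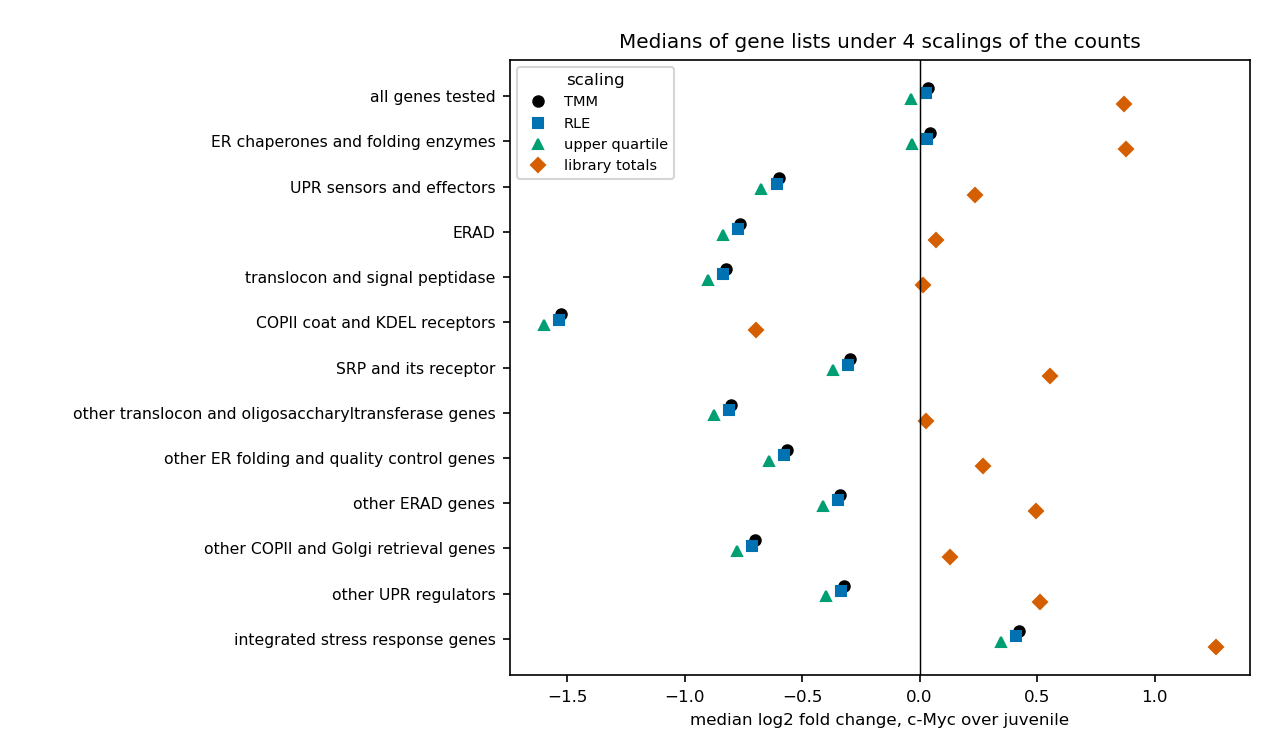
Median log2 fold change of *c-Myc* over juvenile osteoblasts (x axis) for all genes, the 5 role groups and 7 further pathway lists (y axis), under TMM, RLE, upper-quartile and library-total scaling (symbols). Library totals shift every list by nearly the same amount, so the chaperones lie at the all-gene median and the COPII and KDEL receptor genes furthest below it under each scaling, while the other 9 negative medians of lists turn positive with library totals.

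The COPII and KDEL receptor genes moved most uniformly. *Kdelr2*, one of the receptors that recognize the KDEL tail of ER residents, had the highest level per kilobase of all members in juvenile libraries, at 275 CPM per kb of exon. Its level was 483, 526, 532 and 470.2 CPM in juvenile, 453, 502, 544 and 376 CPM in adult, 171.7 and 165 CPM in *c-Myc* and 126 and 127 CPM in *c-Myc* + *R172H* libraries. Every induced library lay below every control library. *Kdelr2* fell by 1.60 ± 0.09 (SE) on the log2 scale with *c-Myc*, to 0.33 of the juvenile level (edgeR adjusted p = 3.88e-08). *Sec24d* encodes the COPII adaptor that selects cargo for export. It stood at 297, 308, 290.5 and 327 CPM in juvenile, 218, 261, 270.3 and 213 CPM in adult, 109 and 113 CPM in *c-Myc* and 91.7 and 89.1 CPM in *c-Myc* + *R172H* libraries. The induced libraries again did not overlap with the controls, and *Sec24d* fell by 1.48 ± 0.09 with *c-Myc* (adjusted p = 7.06e-08). *Kdelr3* fell by 1.57 and *Sec23a*, the inner-coat partner of SEC24, by 1.19. These calls held by library totals too. *Gm17529* on the opposite strand covers 8.905% of the *Sec23a* exons, and the strand setting of the counting is not stated.

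**Figure D2:**
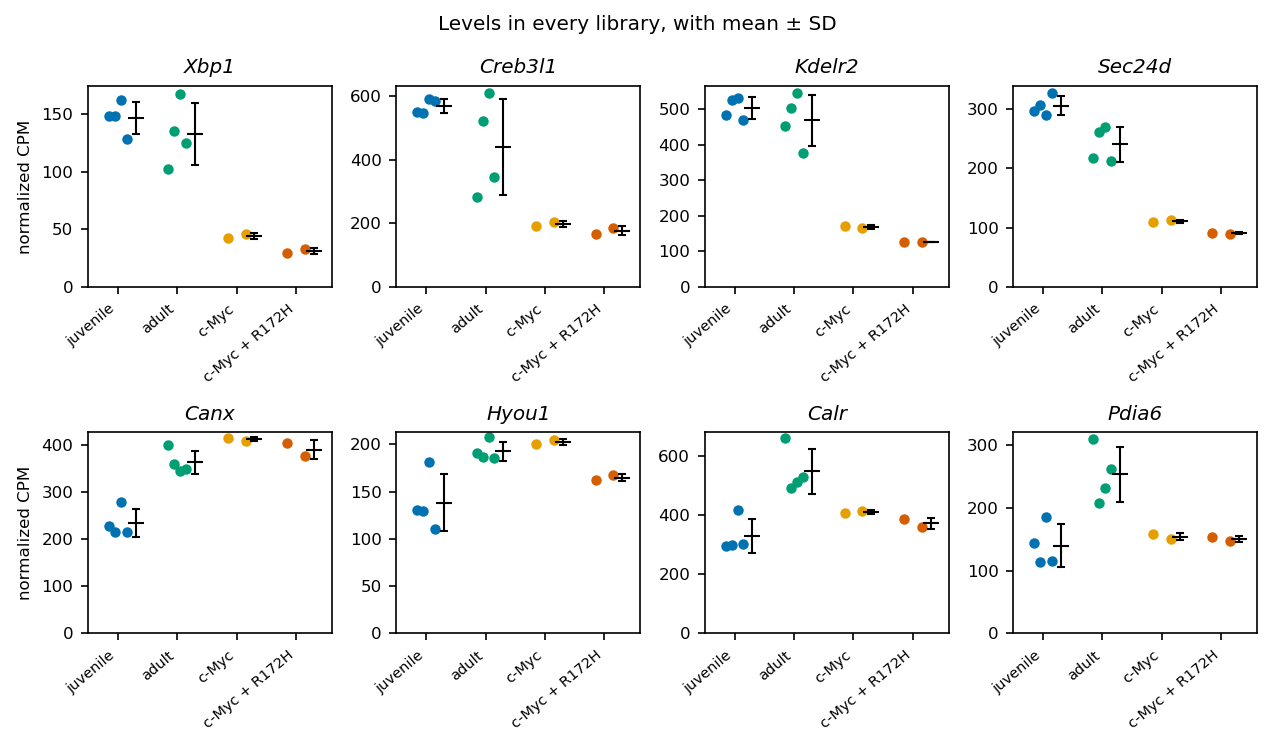
Normalized CPM (y axis, from 0) of 8 members in every library of the 4 groups (points), with the mean ± SD beside them. *Xbp1*, *Creb3l1*, *Kdelr2* and *Sec24d* lie lower in all 4 induced libraries than in any control library, whereas *Canx* and *Hyou1* lie higher in *c-Myc* than in juvenile libraries, and *Calr* and *Pdia6* are highest in adult libraries.

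Among the sensors and effectors, 3 genes fell by more than 2-fold with *c-Myc*. *Xbp1* encodes the transcription factor made from the mRNA that IRE1 splices. It was at 149, 148, 162 and 129 CPM in juvenile, 103, 136, 168 and 125 CPM in adult, 42.2 and 46.2 CPM in *c-Myc* and 29.5 and 32.9 CPM in *c-Myc* + *R172H* libraries. The highest induced library was below the lowest control library, and *Xbp1* fell by 1.75 ± 0.12, to 0.296 of the juvenile level (adjusted p = 1.84e-07). Plasma cells are another cell type rich in *Xbp1*. Of the 10 plasma and B cell markers, *Igkc*, *Ms4a1* and *Tnfrsf17* had 0 counts in all libraries, *Sdc1* made up most of the sum, and *Ighm* was called higher with *c-Myc*, at 0.722 CPM or less in juvenile and 13.7 and 18.2 CPM in *c-Myc* libraries. Their part in the level of *Xbp1* was not tested. *Creb3l1* encodes OASIS, a membrane-bound transcription factor of osteoblasts that activates *Col1a1*. Its level was 552, 548, 593 and 587 CPM in juvenile, 284, 522, 611 and 348 CPM in adult, 192 and 204 CPM in *c-Myc* and 167 and 187 CPM in *c-Myc* + *R172H* libraries. The adult libraries spread from 284 to 611 CPM, wider than any other group, and the induced libraries lay below them all. *Creb3l1* fell by 1.54 ± 0.09 with *c-Myc* (adjusted p = 5.52e-08). The PERK gene *Eif2ak3* fell by 1.56 ± 0.14 (adjusted p = 1.96e-06).

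The remaining sensors moved less. *Ern1* was at 29.5, 30.6, 29.2 and 36.3 CPM in juvenile, 36.1, 36.2, 33.6 and 38.7 CPM in adult, 19.9 and 22.2 CPM in *c-Myc* and 21.0 and 20.8 CPM in *c-Myc* + *R172H* libraries. All induced libraries were below all controls, and *Ern1* fell by 0.60 ± 0.15 (adjusted p = 0.00425, a call kept in 14 of 17 alternatives and lost, among libraries left out, without *c-Myc* replicate 1 at 0.0803 and without the libraries with *Xist* at 0.0609). *Atf4*, the effector of the PERK arm, was at 139.8, 136, 154 and 134 CPM in juvenile, 111, 102, 134 and 124 CPM in adult, 114 and 125 CPM in *c-Myc* and 104 and 104 CPM in *c-Myc* + *R172H* libraries. The *c-Myc* libraries lay under the juvenile range but inside the adult range. *Atf4* fell by 0.26 ± 0.09 (adjusted p = 0.0337, 0.286 without *c-Myc* replicate 1 and 0.0626 without replicate 2), a call kept in 10 of 17 alternatives, and *Atf6* by 0.37 ± 0.13 (adjusted p = 0.0281, 0.134 and 0.137 without *c-Myc* replicates 1 and 2, and 0.061 without juvenile replicate 2), a call kept in 9 of 17. By library totals, *Ern1*, *Atf4* and *Atf6* turned positive, and *Atf4* (0.57, adjusted p = 0.00206) and *Atf6* (0.45, adjusted p = 0.0388) were then called higher.

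The targets downstream of ATF4 did not move together. *Ddit3* encodes CHOP, a transcription factor of prolonged ER stress. Its level was 5.93, 5.26, 6.12 and 3.85 CPM in juvenile, 4.86, 2.71, 0.776 and 4.48 CPM in adult, 3.70 and 3.68 CPM in *c-Myc* and 3.57 and 4.51 CPM in *c-Myc* + *R172H* libraries, with counts of 6 to 91. The *c-Myc* libraries fell just under the juvenile ones and within the adult range, and the log2 fold change of -0.54 ± 0.33 did not pass the test (adjusted p = 0.191). A second annotated *Ddit3* entry overlaps 6.13% of its exons and held no counts. *Chac1*, a glutathione-degrading enzyme, had a log2 fold change of -0.75 ± 0.37 (adjusted p = 0.109). *Trib3*, a pseudokinase that inhibits AKT, rose from the detection limit. It had 3, 0, 0 and 0 counts in juvenile, 0, 6, 17 and 1 in adult, 28 and 35 in *c-Myc* and 30 and 40 in *c-Myc* + *R172H* libraries. The ratio of *c-Myc* to juvenile *Trib3* counts per effective library size was 19.1 (exact 95% interval 6.23 to 94.9, counting error only; adjusted p = 0.0037 by edgeR, and 0.143 without the libraries with *Xist*), and at 2.20 CPM adult replicate 3 exceeded all induced libraries.

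The chaperones of the set were the exception among its role groups. Of 31 further folding and quality control genes outside the set, 18 were lower and 2 higher (median -0.57), against 25.0% and 28.4% of all genes. *Hspa5*, the master chaperone BiP and the standard readout of the UPR, was at 387, 389, 505 and 328 CPM in juvenile, 555, 448, 507 and 549 CPM in adult, 376 and 421 CPM in *c-Myc* and 331 and 346 CPM in *c-Myc* + *R172H* libraries. The *c-Myc* libraries lay inside the juvenile range, and the log2 fold change was -0.03 ± 0.14 (adjusted p = 0.848), which turned positive without juvenile replicate 3 (0.08, adjusted p = 0.492), without *c-Myc* replicate 1 (0.05, adjusted p = 0.855) and by library totals (0.80, adjusted p = 0.000666). *Hsp90b1* (GRP94) was at 237, 217, 281 and 223 CPM in juvenile, 373, 265, 336 and 369.6 CPM in adult, 292 and 303 CPM in *c-Myc* and 284 and 276 CPM in *c-Myc* + *R172H* libraries. All *c-Myc* libraries were above all juvenile ones and within the adult range. *Hsp90b1* rose by 0.29 ± 0.10 (adjusted p = 0.0293), a call kept in 8 of 17 alternatives. Among libraries left out, it was lost without juvenile replicate 2 (0.0815) or 4 (0.0518). It was also lost without *c-Myc* replicate 1 or 2 and without the libraries with *Xist*, fits that left *c-Myc* without replicates. *Canx*, the lectin chaperone calnexin, rose from 235 ± 30.7 CPM (SD, n = 4) to 412 ± 4.17 CPM (SD, n = 2), a log2 fold change of 0.79 ± 0.10 (adjusted p = 3.80e-05) that kept its call in all 17 alternatives. *Hyou1*, a nucleotide exchange factor of BiP, rose by 0.53 ± 0.15 (adjusted p = 0.00874, 0.0536 without *c-Myc* replicate 2 and 0.0684 without the libraries with *Xist*).

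The largest movements among the chaperones were in co-factors of BiP and ran in opposite directions. *Sdf2l1*, a component of the BiP chaperone complex, was at 2.10, 2.37, 7.79 and 1.99 CPM in juvenile, 8.80, 5.08, 6.21 and 11.1 CPM in adult, 18.9 and 18.3 CPM in *c-Myc* and 14.2 and 16.1 CPM in *c-Myc* + *R172H* libraries. The induced libraries were above every control library, although juvenile replicate 3 stood well above the other juvenile libraries. *Sdf2l1* rose by 2.41 ± 0.41 on the log2 scale, or 5.33-fold (adjusted p = 2.80e-04). *Dnajb9* (ERdj4), a BiP co-chaperone that represses IRE1, was at 14.8, 16.0, 19.7 and 11.8 CPM in juvenile, 9.92, 14.3, 18.4 and 10.4 CPM in adult, 6.62 and 7.76 CPM in *c-Myc* and 6.59 and 6.84 CPM in *c-Myc* + *R172H* libraries. It fell below all control libraries, by 1.13 ± 0.24 (adjusted p = 0.00165). The BiP co-chaperone *Dnajc3* fell by 0.49 (0.097 for the adjusted p without *c-Myc* replicate 1). The disulfide isomerases *Pdia3* and *Pdia4* fell by 0.35 and 0.33, calls kept in 12 and 10 of 17 alternatives. Without *c-Myc* replicate 1 or 2 the adjusted p was 0.0704 or 0.112 for *Pdia3* and 0.132 or 0.108 for *Pdia4*, and without the libraries with *Xist* it was 0.156 and 0.159. By library totals, *Dnajc3*, *Pdia3* and *Pdia4* were called higher with *c-Myc*, and *Dnajb9* was not called (-0.31, adjusted p = 0.326). The other 6, *Hspa5*, *Pdia6*, *Calr*, *Creld2*, *Dnajb11* and *Manf*, were not called and had log2 fold changes from -0.22 to 0.31.

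**Figure D3:**
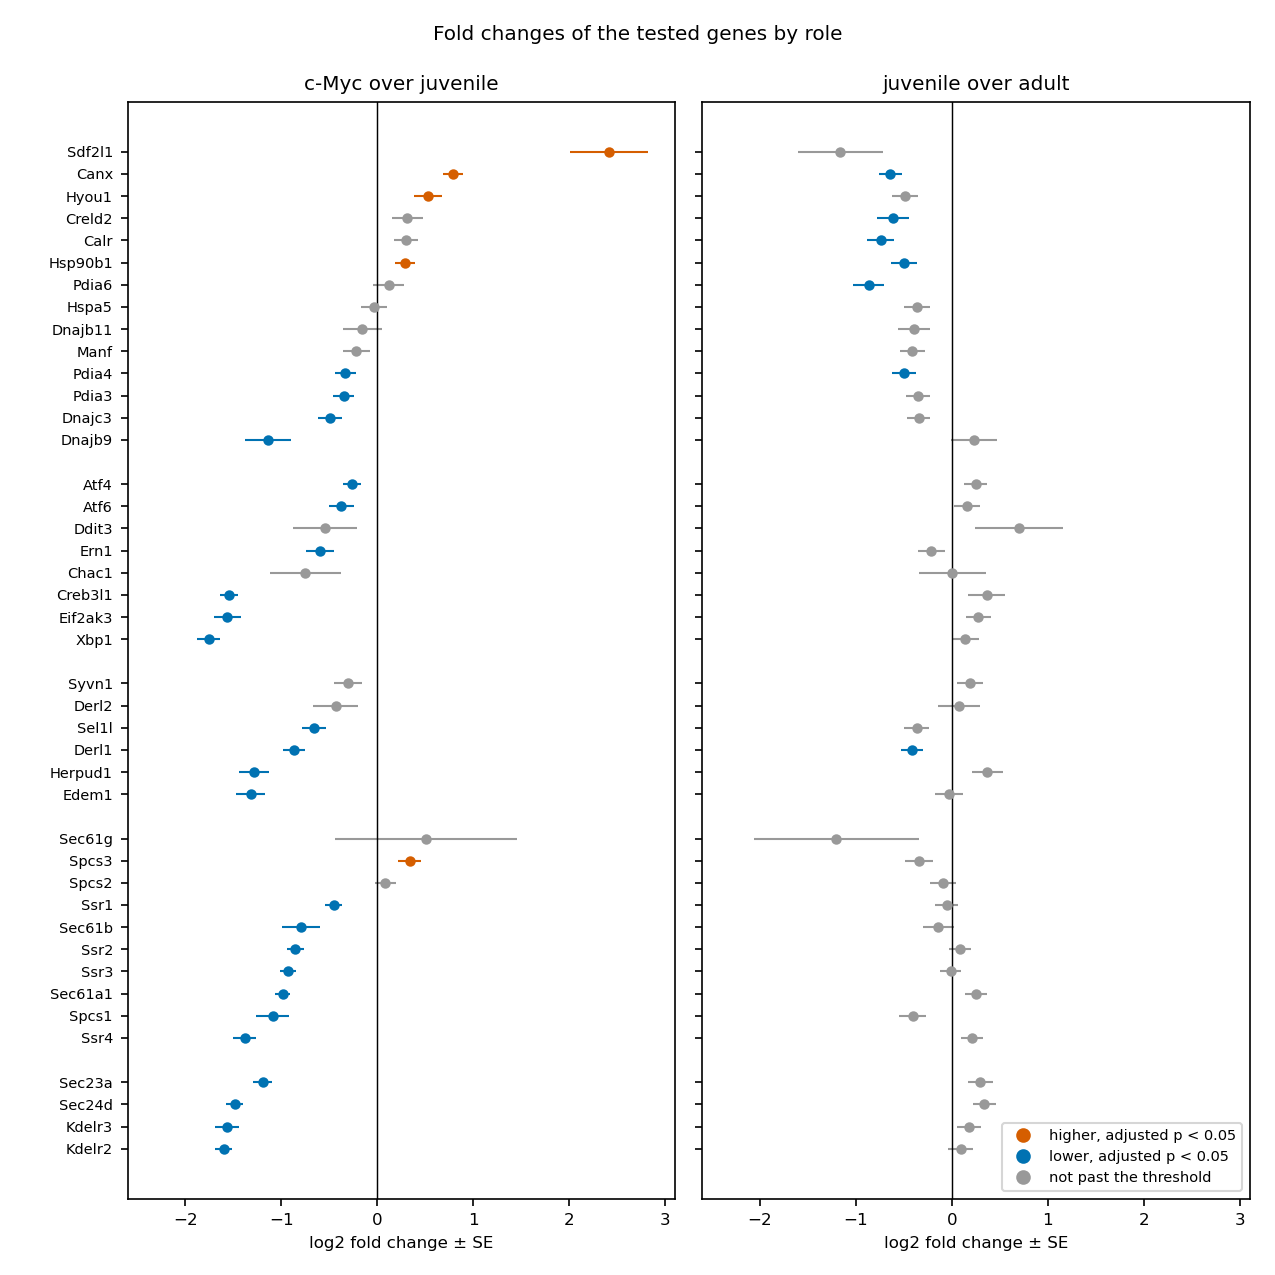
Log2 fold change ± SE (x axis) of the tested members for *c-Myc* over juvenile (left) and juvenile over adult (right), grouped by role from chaperones at the top to COPII and KDEL receptors at the bottom, under TMM scaling; *Trib3* is left out because of its counts of 0. On the left the chaperones lie on both sides of 0 and the export genes on the negative side (the all-gene median moves to 0.87 with library totals); on the right the calls are chaperones and *Derl1*, all lower in juvenile.

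In ERAD, which draws misfolded proteins out of the ER for degradation, no member was called higher under TMM, while *Syvn1* was by library totals (0.53, adjusted p = 0.0197). *Edem1*, which marks misfolded glycoproteins for disposal, was at 88.1, 98.1, 133 and 113 CPM in juvenile, 101, 112, 132 and 92.7 CPM in adult, 42.8 and 44.9 CPM in *c-Myc* and 34.6 and 36.1 CPM in *c-Myc* + *R172H* libraries. The induced libraries were all below the lowest control, and *Edem1* fell by 1.32 ± 0.15 (adjusted p = 1.12e-05). *Herpud1*, a scaffold of the HRD1 complex, was at 47.9, 70.9, 62.7 and 58.4 CPM in juvenile, 53.3, 55.2, 42.4 and 33.6 CPM in adult, 26.6 and 23.5 CPM in *c-Myc* and 23.3 and 21.0 CPM in *c-Myc* + *R172H* libraries. It too lay below all controls and fell by 1.28 ± 0.16 (adjusted p = 2.14e-05). *Derl1* and *Sel1l*, membrane parts of the same machinery, fell by 0.87 and 0.66, of which *Sel1l* turned positive by library totals. With that scaling *Herpud1* (-0.44, adjusted p = 0.0505) and *Derl1* (-0.03, adjusted p = 0.867) were not called. The ligase *Syvn1* (HRD1) and *Derl2* had log2 fold changes of -0.30 ± 0.14 and -0.43 ± 0.23 and did not pass. *Derl3* was not tested, with 0 counts in all juvenile libraries and 6 and 2 in the *c-Myc* libraries, at least 2.42-fold higher when juvenile is set at a floor of 3 counts over the group.

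At the translocon, *Sec61a1*, the pore subunit, was at 606, 614, 611 and 612 CPM in juvenile, 470.0, 492, 584 and 496 CPM in adult, 325 and 303 CPM in *c-Myc* and 268 and 258 CPM in *c-Myc* + *R172H* libraries. All induced libraries were below all controls, and *Sec61a1* fell by 0.98 ± 0.08 (adjusted p = 5.61e-07). A gene on the opposite strand covers 8.155% of its exons, and the strand setting of the counting is not stated. All 4 subunits of the translocon-associated protein complex fell, *Ssr4* by 1.38, *Ssr3* by 0.93, *Ssr2* by 0.85 and *Ssr1* by 0.45, of which *Ssr1* was called higher by library totals. With that scaling *Sec61a1* (-0.15), *Ssr3* (-0.10) and *Ssr2* (-0.02) were not called. *Ssr4*, the member of the group that fell most, was at 114, 109, 107 and 97.0 CPM in juvenile, 84.7, 89.9, 104 and 87.5 CPM in adult, 45.7 and 37.5 CPM in *c-Myc* and 31.7 and 33.4 CPM in *c-Myc* + *R172H* libraries. The control and induced ranges were far apart, and the edgeR test of *c-Myc* against juvenile gave *Ssr4* an adjusted p of 1.27e-06. *Sec61b* fell by 0.80 (0.0555 for the adjusted p without *c-Myc* replicate 2, 0.0682 without the libraries with *Xist*, and positive by library totals). *Sec61g* had at most 23 counts in a library and was not called.

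The 3 signal peptidase members went 3 ways. *Spcs1* fell by 1.09 ± 0.17 (adjusted p = 1.96e-04; not called by library totals, at -0.24), with 16.3% of its exons covered by *Glt8d1* on the opposite strand. *Spcs2* had a log2 fold change of 0.09 ± 0.11 (adjusted p = 0.55). *Spcs3*, a subunit needed for signal peptidase activity, was at 35.8, 37.8, 41.3 and 43.5 CPM in juvenile, 53.7, 38.4, 53.2 and 54.3 CPM in adult, 54.7 and 46.8 CPM in *c-Myc* and 54.6 and 52.0 CPM in *c-Myc* + *R172H* libraries. The *c-Myc* libraries were above the juvenile ones and overlapped the adult ones. *Spcs3* rose by 0.34 ± 0.12 (adjusted p = 0.0289), a call kept in 10 of 17 alternatives. Among libraries left out, it was lost without juvenile replicate 1 (0.0594) or 2 (0.0586). It was also lost without *c-Myc* replicate 1 and without the libraries with *Xist*, fits that left *c-Myc* without replicates.

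Markers of several cell types moved in the same comparison. All 10 osteoblast markers were lower with *c-Myc* under TMM (median log2 fold change -2.30), although the log2 fold changes of *Runx2* (-0.71) and *Sp7* (-0.81) were smaller in size than the all-gene median of 0.87 by library totals, and the 12 chondrocyte markers were lower too (median -5.63), their sum going from 18541 to 36117 CPM in juvenile to 1868 and 2114 CPM in *c-Myc* libraries. Osteoclast markers summed to 203 to 332 CPM in juvenile and 83.9 and 104 CPM in *c-Myc* libraries, marrow stromal markers to 272 to 361 CPM and 109.7 and 186 CPM, and myeloid markers to 1.28 to 5.70 CPM and 11.4 and 12.2 CPM. The part of these markers in the fall of the secretory genes was not tested.

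Of 6 further lists of the pathway, outside the set, each held more genes called lower than higher with *c-Myc* under TMM. Over all genes tested, 25.0% were lower and 28.4% higher under TMM, and 8.86% were lower and 54.0% higher by library totals. Of 32 further COPII and Golgi retrieval genes tested, 25 were lower with *c-Myc* and 0 higher (median log2 fold change -0.70; 0 higher at an unadjusted p below 0.05, and 7 higher and 5 lower by library totals), the largest fall being that of the cargo receptor gene *Tmed3* by 2.02 ± 0.14. Of 17 further translocon and oligosaccharyltransferase genes, 13 were lower and 0 higher (median -0.80; 0 higher at an unadjusted p below 0.05, and 4 higher and 2 lower by library totals), led by the translocating chain-associated gene *Tram2* at -1.81 ± 0.15. Signal recognition particle and receptor genes had 3 of 9 lower, near the share of all genes (median -0.29; 3 higher and 0 lower by library totals). Further folding genes had 18 of 31 lower and 2 higher (median -0.57; 11 higher and 7 lower by library totals), from the prolyl isomerase *Fkbp7* at -2.22 to the oxidase *Ero1l* at 0.99. Further ERAD genes had 8 of 19 lower and 3 higher (median -0.34; 10 higher and 3 lower by library totals), from *Selenos* at -1.68 to *Nploc4* at 0.59. Further UPR regulators had 8 of 14 lower and 4 higher, with *Creb3l3*, a relative of *Creb3l1*, at -2.17 and the death receptor gene *Tnfrsf10b* at 1.71 (median -0.32; 8 higher and 3 lower by library totals).

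The integrated stress response list went the other way. Of 20 genes of this response, which ATF4 drives during amino acid shortage as well as ER stress, 10 were higher and 3 lower with *c-Myc* (median log2 fold change 0.42; 17 higher and 2 lower by library totals). The shares of all genes were 28.4% higher and 25.0% lower under TMM, and 54.0% higher and 8.86% lower by library totals. *Cth*, an enzyme of cysteine synthesis, had 0 counts in all juvenile libraries and 75 and 35 in *c-Myc* libraries, at least 33.3-fold higher when juvenile is set at a floor of 3 counts over the group. The lipoprotein receptor gene *Vldlr* fell by 2.09 ± 0.18 (adjusted p = 9.83e-07). Under TMM, *Atf4* itself was lower and its UPR target *Ddit3* was not called, while by library totals *Atf4* was called higher.

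**Figure D4:**
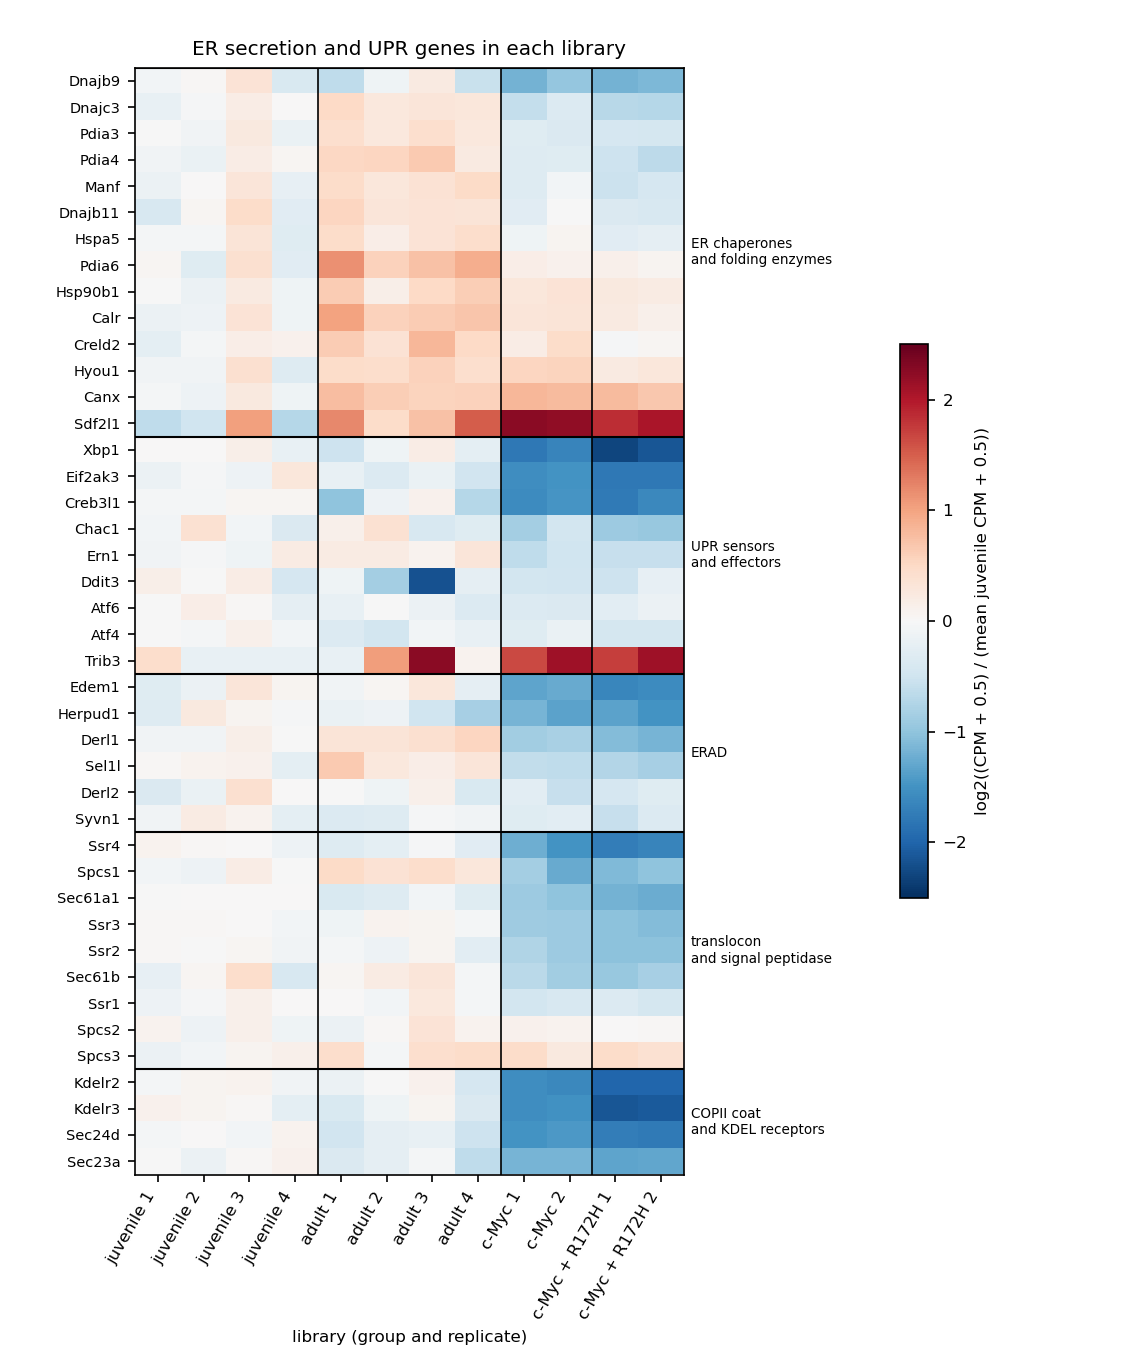
Level of the members in each library as log2 of CPM + 0.5 over the mean juvenile CPM + 0.5 (colour scale, blue lower and red higher), with libraries as columns, genes as rows grouped by role, and TMM scaling; *Derl3* and *Sec61g* are left out as they had few counts. The 4 induced columns are blue for most genes below the chaperones, where library totals would lift all *c-Myc* values by close to the all-gene shift of 0.87, and the 4 adult columns are red for most chaperones.

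By promoter element, the 3 UPRE holders fell with *c-Myc* (log2 fold changes from -1.57 to -1.19), while the 8 tested ERSE holders had 2 higher and 1 lower (from -0.49 to 0.79), and the 23 tested members with neither element had 2 higher and 15 lower. Outside the set, 103 tested genes with a UPRE had 42 lower and 17 higher (median -0.32), and the 7 with an ERSE had 1 lower and 1 higher. Of the 103 genes with a UPRE, 44 were not called. Over all genes tested, 25.0% were lower and 28.4% higher, with a median of 0.04. The part of these elements in the changes was not tested.

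With age, the calls lay mostly among the chaperones. Of 42 members tested, 7 were lower in juvenile than in adult osteoblasts and 0 higher at an adjusted p below 0.05 by edgeR's quasi-likelihood test, where 3.23% of the 11345 genes tested were lower and 1.89% higher. At an unadjusted p below 0.05, 17 members were lower and 5 higher, against 10.6% and 9.06% of all genes. The 7 were the chaperones and folding enzymes *Pdia6*, *Calr*, *Canx*, *Creld2*, *Hsp90b1* and *Pdia4* and the ERAD gene *Derl1*. The 14 chaperones had a median log2 fold change (juvenile over adult) of -0.49, with 13 of 14 negative, against 0.00 for all genes and -0.07 for all tested members. The libraries did not overlap between ages for 14 of 42 members, against 12.9% of all genes, and 11 of these were lower in juvenile.

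*Pdia6*, a disulfide isomerase that also attenuates UPR sensors, was at 144, 114, 186 and 115 CPM in juvenile and 309.7, 208, 232 and 262 CPM in adult libraries. The ages did not overlap, and *Pdia6* was lower in juvenile by 0.86 ± 0.16 on the log2 scale (adjusted p = 0.00644). Calreticulin (*Calr*), a calcium-binding lectin chaperone, was at 296, 299.8, 417 and 303 CPM in juvenile and 659, 490.4, 509.5 and 529 CPM in adult libraries. These did not overlap either (log2 fold change -0.74 ± 0.14, adjusted p = 0.00713). *Canx*, its membrane-bound counterpart, was at 228, 214, 279.8 and 216 CPM in juvenile and 399, 361, 345 and 349 CPM in adult libraries, again apart (log2 fold change -0.64 ± 0.12, adjusted p = 0.00663). *Creld2* (-0.61 ± 0.16), *Hsp90b1* (-0.50 ± 0.13) and *Pdia4* (-0.50 ± 0.12) had smaller log2 fold changes with adjusted p of 0.037, 0.0402 and 0.0278. *Hsp90b1* overlapped between the ages, with 281 CPM in juvenile replicate 3 above the 265 CPM of adult replicate 2. *Derl1*, at 64.7, 64.9, 76.1 and 68.6 CPM in juvenile and 85.7, 86.2, 91.2 and 100.4 CPM in adult libraries, did not overlap (log2 fold change -0.41 ± 0.11, adjusted p = 0.0442). *Hyou1* just missed the threshold (-0.49 ± 0.14, adjusted p = 0.0502), and *Hspa5* did not pass (-0.36 ± 0.14, adjusted p = 0.142).

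*Calr* and *Canx* were called in all 17 alternatives for age, and *Pdia6* in 16. The number of members called lower was 3 without adult replicate 1 or 3 or juvenile replicate 1, 2 or 4, 4 without adult replicate 4 and 11 without juvenile replicate 3, and in each of the sets that left 3 only *Pdia6*, *Calr* and *Canx* kept their calls. In these fits 1.72 to 2.49% of all genes were lower, against 3.23% with all libraries of both ages. Cartilage markers moved in the same direction: the 12 chondrocyte markers summed to 18541 to 36117 CPM in juvenile and 43822 to 138245 CPM in adult libraries, with the most in adult replicates 1 and 4, and 11 of the 12 had a negative log2 fold change. With both of these adult libraries left out, 3 members remained lower, *Calr*, *Canx* and *Pdia4*, against 1.23% of all genes, and *Pdia6* had an adjusted p of 0.0534. By library totals, where the all-gene median moved to -0.24, 17 members were lower and 0 higher, against 6.99% and 0.467% of all genes.

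The COPII and KDEL receptor genes and the UPR sensors and effectors were not called for age. The 4 COPII and KDEL receptor genes had positive log2 fold changes (median 0.24; 0.01 by library totals, where *Kdelr2* and *Kdelr3* turned negative), from 0.09 to 0.34, and none passed; 2 of the 4 were higher at an unadjusted p below 0.05. *Xbp1* (0.14 ± 0.14), *Creb3l1* (0.36 ± 0.19) and *Atf4* (0.25 ± 0.12) did not pass either, *Xbp1* and *Atf4* turning negative by library totals. The 10 translocon and signal peptidase genes had a median of -0.07, and 0 were called, with 1 higher and 2 lower at an unadjusted p below 0.05. Of the 8 tested ERSE holders, 5 were lower in juvenile, and of the 3 UPRE holders 0 were, against 3.23% of all genes. Those 5 are chaperones already named above. Among genes that are not members, 1 of 6 tested with an ERSE was lower and 0 higher (median -0.11). With a UPRE, 2 of 100 were lower and 1 higher. Outside the set, the age comparison called 2 of 17 translocon and oligosaccharyltransferase genes lower, *Magt1* (-0.71 ± 0.15) and *Ost4* (-0.60 ± 0.14). Of 14 UPR regulators 3 were lower, *Tnfrsf10b* (-1.97 ± 0.45), *Rcan1* and *Creb3l2*. In the other 5 lists 0 were called. At an unadjusted p below 0.05, 4 of 18 integrated stress response genes were higher and 4 lower. By the same rule, 4 of 32 COPII and Golgi retrieval genes were higher and 2 lower, and 1 of 31 folding genes was higher and 5 lower. None of 19 ERAD genes or 9 signal recognition genes passed. Of all genes, 9.06% were higher and 10.6% lower by this rule.

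Both comparisons use the juvenile libraries, so their values are given side by side without a comparison of their sizes. *Canx*, at 235 ± 30.7 CPM in juvenile (SD, n = 4), was at 364 ± 24.7 CPM in adult (SD, n = 4) and 412 ± 4.17 CPM in *c-Myc* libraries (SD, n = 2). *Sec24d* was at 306 ± 15.8, 241 ± 29.3 and 111 ± 2.89 CPM in the same order.

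Adding *R172H* to *c-Myc* gave no call among the members. Of 43 members tested, 0 were higher and 0 lower by edgeR's quasi-likelihood test, where 0.461% of the 12588 genes tested were lower and 0.00794% higher. At an unadjusted p below 0.05, 6 members were lower and 0 higher, against 4.06% and 0.620% of all genes. DESeq2 called 4 lower, where it called 2.37% of the 8439 genes to which it gave an adjusted p. With sex, read from *Xist*, as a term in the edgeR fit 0 were called, where 0.397% of all genes were lower. Without the libraries with *Xist* neither group has replicates left, so calls under that setting decide nothing. Of the 43, 35 had a negative log2 fold change, with a median of -0.15 against 0.00 for all genes (0.06 against 0.21 by library totals). The libraries of both groups of 2 did not overlap for 32 members, against 45.0% of all genes. Apart from the low-count *Sec61g*, the 4 most negative log2 fold changes were those of *Kdelr3*, *Xbp1*, *Kdelr2* and *Ssr4*, which had also fallen with *c-Myc*. *Kdelr3*, at 36.7 and 38.0 CPM in *c-Myc* and 24.4 and 25.1 CPM in *c-Myc* + *R172H* libraries, had a log2 fold change of -0.56 ± 0.14 (adjusted p = 0.134). *Xbp1* had -0.47 ± 0.13 (adjusted p = 0.246) and *Kdelr2* -0.38 ± 0.10 (adjusted p = 0.161). The DESeq2 calls were these 3 and *Sec61a1*, and a fit of only the 2 induced groups called these 3, *Hyou1* and *Sec24d*. That 2-group fit called 3.62% of all genes lower and 1.55% higher.

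The chaperones were all negative in this comparison, from -0.29 for *Creld2* to -0.01 for *Pdia6*, under TMM (median -0.20; 0.01 by library totals), and none passed (0 of 14 at an unadjusted p below 0.05). *Hspa5* stood at -0.21 ± 0.16 and *Ddit3* at 0.16 ± 0.37. In the 7 further lists, of 9 to 32 tested genes, 0 genes were called. At an unadjusted p below 0.05, 0 to 3 genes a list were lower and 0 higher, against 4.06% and 0.620% of all genes. A missed threshold with 2 libraries a group does not show equal levels.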

How the data were processed

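Bulk RNA-seq counts of 12 libraries were used. Per the methods, the authors removed adapters with cutadapt 4.6, used STAR 2.7.11a for alignment to mm10 and HTSeq-count 2.0.5 for unique reads per gene, and deposited raw counts. Alignment and counting are stated with different GENCODE releases, and no strand setting is given. Exon lengths and overlaps came from one more GENCODE release of that build, which matched 32235 of 32288 entries, and promoters from the RefSeq table of GRCm38.p6. *Ddit3* has 2 entries, of which the one with counts was used.

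Groups and replicate numbers follow the sample titles. The adult library names carry other numbers. Replicates differed by more than sampling noise in every group (chi-square per degree of freedom 5.75 to 147). No source used here says how many mice gave each induced library. *Xist* differed between both libraries of each induced group, so these were not of the same mouse, and p-values measure the spread between libraries.

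The main test was edgeR 4.0.16 under R 4.3.3, with TMM factors, the default filter on low expression, robust quasi-likelihood estimation and Benjamini-Hochberg adjustment over all genes tested at a threshold of 0.05. One fit held the juvenile and adult libraries and another the juvenile libraries and both induced groups, so the *c-Myc* and *R172H* comparisons share the *c-Myc* libraries. SE was the log2 fold change over the square root of F, an approximation. Printed CPM use TMM factors of all 12 libraries, while fold changes come from each fit. The procedure was tested on simulated data. Intervals and floors cover counting error only.

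Alternatives were RLE, upper-quartile and library-total scaling, 2 other filters, fits of other groups, the replicate number as a block, DESeq2 1.42.0, and leaving out each library. Leaving out the libraries with *Xist*, sex read from *Xist* as a term in the fit, and leaving out both adult libraries with the most cartilage marker counts were added after seeing the data. The members, lists, motifs and rules were chosen with earlier results of these data known. Every member is accounted for by role. Values in every library are given for 10 members central by role and, for each comparison and role, the called members with the largest rise and fall. Every member called for age or *R172H* is named. Of further lists, the called genes with the largest rise and fall may be named. Retention signals in the proteins were planned and are not analysed here.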

Additional observations from a re-analysis of the deposited data

Results flagged for a closer look

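In 85 groups of 4 libraries (members in juvenile or adult osteoblasts), 5 held a library far from the other 3, by Dixon's criterion, which chance meets in about 1 group of 20. Juvenile replicate 3 was the high library for *Calr*, at 417 CPM against 303 CPM for the next library, and for *Sdf2l1*, at 7.79 CPM against 2.37 CPM. Juvenile replicate 4 was low for *Ssr3*, at 399 CPM against 423 CPM. Adult replicate 1 was high for *Dnajb11*, at 64.5 CPM against 55.6 CPM. Adult replicate 2 was low for *Spcs3*, at 38.4 CPM against 53.2 CPM.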

How the results depend on the processing

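Library totals in place of TMM moved most. With them, the *c-Myc* members had 20 higher, 9 lower and a median of 0.34, the age members 17 lower and a median of -0.32, and the *R172H* members a median of 0.062. Of the members tested, 16 of 43 turned positive for *c-Myc*, 10 of 42 negative for age and 18 of 43 positive for *R172H*. Among the members central by role or called in that comparison, those were, for *c-Myc*, *Pdia3* (0.49), *Pdia4* (0.51), *Dnajc3* (0.34), *Ern1* (0.24), *Atf6* (0.45), *Atf4* (0.57), *Sel1l* (0.17), *Sec61b* (0.046), *Ssr1* (0.39), *Hspa5* (0.80), *Ddit3* (0.28); for age, *Xbp1* (-0.092), *Atf4* (-0.0024); and for *R172H*, *Hspa5* (0.0086), *Hsp90b1* (0.16), *Atf4* (0.043), *Creb3l1* (0.081), *Herpud1* (0.062). *Col1a1*, a collagen mRNA, was itself lower with *c-Myc* (log2 -2.68, TMM), and its part in these shifts was not tested. *Gm26917* held a larger share of counts in both induced groups than in the controls, and its part was not tested either.

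Other sign changes lay near 0. *Hspa5* with *c-Myc* was 0.020 with no filter, 0.0037 with the replicate block and -0.12 to 0.085 with a library left out. *Xbp1* for age was -0.048 without adult replicates 1 and 4. For *R172H*, *Ern1* was -0.0014 with RLE, -0.0072 with all 12 libraries, -0.0010 with DESeq2 and -0.082 to 0.074 with a library left out, and *Ddit3* was -0.052 without the libraries with *Xist* and -0.054 to 0.30 with a library left out. The cause was not tested.

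The *c-Myc* median of the members was -0.57 with upper-quartile scaling and -0.42 with no filter. For age, 1 member was higher with all 12 libraries (*Sec24d*), against 3.54% of all genes. Leaving out a library gave 3 to 11 lower, where 1.72 to 4.67% of all genes were lower. Without adult replicates 1 and 4 there were 3 lower (1.23% of all genes) and a median of -0.17. For *R172H*, no filter gave 1 lower (1.09% of all genes), DESeq2 4 (2.37%) and a fit of the 2 groups alone 5 (3.62%). The median was -0.17 with RLE, DESeq2 and the *Xist* libraries out, -0.18 with all 12 libraries, and -0.22 to -0.15 with a library left out.

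The replicate numbers were not established as pairs. Deviations of same-numbered juvenile and adult libraries correlated at -0.08 to 0.05, and those of the *c-Myc* and *c-Myc* + *R172H* libraries at 0.17 over only 2 numbers, of which replicate 2 is the one with *Xist* in both groups. With the replicate block, 4 members were lower for age, 9 higher and 27 lower for *c-Myc*, and 3 lower for *R172H* (*Xbp1*, *Kdelr2*, *Kdelr3*), against 0 with sex as the term. Of all genes, the block called 2.36% lower for age, and 32.1% higher and 28.9% lower for *c-Myc*. For *R172H* it called 2.35% of all genes lower, where the fit with sex as the term called 0.397%. *Derl3*, *Sec61g* and *Trib3* were limited by low counts.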
